A study of Mus musculus with 6 samples.

Results

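Serpina3 genes encode secreted and intracellular serpins, proteins that trap a protease after it cuts their exposed reactive centre loop. The mouse carries a cluster of such copies where humans have the single gene SERPINA3, which encodes alpha-1-antichymotrypsin. The 7 genes described here, Serpina3c, Serpina3f, Serpina3g, Serpina3i, Serpina3k, Serpina3m and Serpina3n, were chosen by symbol among the 16140 genes of the table, with their estimated counts and their TPM (a level per transcript length, scaled to the same total in each library) in the control and knockout libraries already known. They are 7 of the 10 Serpina3 symbols in it. Their knockout-control differences are therefore given as a description, with standard errors, and support nothing. The lowest of the 7 was Serpina3i, with 8.24 to 104.48 estimated counts per library. The symbols not chosen had fewer, Serpina3a with 1 to 14, Serpina3b with 0 to 2 and Serpina3j with 0 to 1.

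In liver, hepatocytes secrete several serpins into the blood as part of the acute phase response, which interleukin 6 drives through the transcription factor STAT3. Serpina3n inhibits neutrophil elastase, cathepsin G and granzyme B, and Serpina3k, also called contrapsin, inhibits trypsin-like proteases. Serpina3g, also called Spi2A, acts inside immune cells, where it inhibits lysosomal cysteine cathepsins and is induced by interferon gamma.

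The study compared livers of mice with floxed Selenoo alleles and an Alb-Cre transgene, in which the albumin promoter drives Cre in hepatocytes, with livers of mice with floxed alleles and no Cre. All were on a normal diet, and the labels give no age, sex or pooling. Both groups carry the floxed alleles, so Cre itself and loss of Selenoo, the gene of a mitochondrial selenoprotein, cannot be told apart. There were 3 control and 3 knockout libraries of poly(A) RNA, and since the labels do not say that each came from its own mouse, tests measure the spread between these samples. Selenoo itself had 45.4, 50.3 and 60.1 TPM in control and 3.81, 5.18 and 4.24 TPM in knockout libraries. Its mean went from 51.9 ± 7.51 to 4.41 ± 0.701 TPM (SD, n = 3), which leaves 8.49% of the control mean. Libraries held 15550289 to 18680195 estimated counts, at which 3 counts, the most that a count of 0 allows, come to 0.155 to 0.201 CPM (counts scaled to library size); such limits cover counting error only. The 13 hepatocyte markers in the table summed to between 178389 and 218310 TPM per library, and the groups overlapped.

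The genes lie in 1 stretch of chromosome 12 (GRCm38). In order they are Serpina3c (NCBI Gene 16625, 104146907 to 104153929, the only member on the minus strand), Serpina3f (238393, 104214544 to 104221129), Serpina3g (20715, 104236147 to 104241939), Serpina3i (628900, 104263045 to 104271899), Serpina3k (20714, 104338486 to 104345739), Serpina3m (20717, 104387157 to 104396125) and Serpina3n (20716, 104406646 to 104414334). RefSeq promoters on GRCm38.p6, running from 250 bases before the start site to 50 after it, were found for 5 of the 7. They are shown because the members that differ most between the groups do not have the most similar promoters. Capitals mark the motif TTCNNNGAA, the core that STAT factors bind, and CAGAGCACAGCTT, the longest run of bases that all 5 hold, picked from these sequences.
Serpina3c (chr12:104153823-104154122, minus strand): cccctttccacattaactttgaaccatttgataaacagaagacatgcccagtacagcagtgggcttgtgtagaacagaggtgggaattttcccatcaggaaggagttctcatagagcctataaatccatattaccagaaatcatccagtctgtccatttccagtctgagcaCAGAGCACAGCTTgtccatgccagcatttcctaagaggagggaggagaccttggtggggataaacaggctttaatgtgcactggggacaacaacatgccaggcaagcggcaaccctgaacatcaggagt
Serpina3n (chr12:104406458-104406757, plus strand): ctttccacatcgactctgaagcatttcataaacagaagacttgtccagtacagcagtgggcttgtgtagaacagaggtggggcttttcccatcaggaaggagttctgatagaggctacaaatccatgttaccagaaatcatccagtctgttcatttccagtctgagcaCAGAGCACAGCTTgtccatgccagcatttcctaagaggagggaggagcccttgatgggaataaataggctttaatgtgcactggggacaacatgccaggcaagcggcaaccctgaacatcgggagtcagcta
Serpina3f (chr12:104214294-104214593, plus strand): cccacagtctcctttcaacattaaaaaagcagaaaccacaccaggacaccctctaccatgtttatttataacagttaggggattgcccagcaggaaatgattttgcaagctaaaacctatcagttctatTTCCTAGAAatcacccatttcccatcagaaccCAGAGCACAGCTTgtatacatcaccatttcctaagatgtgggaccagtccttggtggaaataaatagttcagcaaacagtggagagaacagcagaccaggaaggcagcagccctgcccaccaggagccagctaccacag
Serpina3g (chr12:104235897-104236196, plus strand): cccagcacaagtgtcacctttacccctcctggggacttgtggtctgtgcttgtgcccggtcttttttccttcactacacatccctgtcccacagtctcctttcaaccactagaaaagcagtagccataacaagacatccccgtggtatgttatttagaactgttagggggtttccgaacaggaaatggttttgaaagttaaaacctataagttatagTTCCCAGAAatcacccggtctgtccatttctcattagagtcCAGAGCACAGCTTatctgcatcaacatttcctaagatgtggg
Serpina3i (chr12:104262872-104263171, plus strand): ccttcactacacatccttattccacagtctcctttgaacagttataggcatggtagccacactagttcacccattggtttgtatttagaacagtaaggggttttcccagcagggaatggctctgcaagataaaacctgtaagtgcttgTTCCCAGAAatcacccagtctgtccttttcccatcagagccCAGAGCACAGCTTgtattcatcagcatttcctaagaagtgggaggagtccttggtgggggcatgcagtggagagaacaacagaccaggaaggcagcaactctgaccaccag

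The promoters of Serpina3c and Serpina3n were 93.5% identical, with 19 differing bases among 294 aligned and 12 gap columns. Every other pair was 69.6% to 83.7% identical over its aligned bases, with Serpina3f, Serpina3g and Serpina3i closer to each other (79.7% to 83.7%) than to Serpina3c or Serpina3n (69.6% to 74.6%). Pairs with Serpina3g had 138 to 196 gap columns and only 202 to 231 aligned bases, so their identity covers less of the window. TTCNNNGAA, which reads the same on both strands, was found in Serpina3f, Serpina3g and Serpina3i and in 8.3% of 32851 promoters of the same length. CAGAGCACAGCTT, searched on both strands, occurred in 7 (0.0213%) of the 32851 promoters, and 6 of the 7 belong to these 5 genes, as Serpina3f has a further listed start. It began 79, 82, 89 and 61 bases before the start site in Serpina3c, Serpina3n, Serpina3f and Serpina3i, and at base 9 after the annotated start in Serpina3g. TTGCNNAA, a C/EBP motif, was found in Serpina3f (10.8% of all promoters), TATAAA in Serpina3c and Serpina3f (13.6%) and the NF-kB decamer in Serpina3g and Serpina3i (8.46%). The palindromic glucocorticoid receptor motif was found in none of the 5 (0.00913% of all promoters). These matches are letters in a window, not measured binding.

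The coding sequences, from the GENCODE M21 models on GRCm38, were 81.5% to 92.1% identical between members. The closest pairs were Serpina3f with Serpina3i (92.1%) and Serpina3k with Serpina3m (92%). Serpina3g was compared over its shorter coding model of 744 bases, against 1224 to 1335 in the others. Over the 21 pairs the median identity was 88.9% in coding exon 1 and 78.6% in coding exon 4. These medians mix unlike lengths. Coding exon 1 has 31 bases in the Serpina3g model and 607 to 640 in the others, and coding exon 4 has 186 to 303. That last coding exon holds the code for the reactive centre loop, the bait that sets which protease is trapped. It is shown for Serpina3k and Serpina3m, the pair with the most shared stretches, with the bases that differ in their alignment in capitals (25 in Serpina3k and 31 in Serpina3m). In this exon the pair was 86.6% identical.
Serpina3k (chr12:104345233-104345418, plus strand): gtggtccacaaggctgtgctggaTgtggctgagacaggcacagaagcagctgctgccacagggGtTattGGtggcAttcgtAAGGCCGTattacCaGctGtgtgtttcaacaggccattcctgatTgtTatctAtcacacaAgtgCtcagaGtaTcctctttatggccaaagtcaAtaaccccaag
Serpina3m (chr12:104393733-104393924, plus strand): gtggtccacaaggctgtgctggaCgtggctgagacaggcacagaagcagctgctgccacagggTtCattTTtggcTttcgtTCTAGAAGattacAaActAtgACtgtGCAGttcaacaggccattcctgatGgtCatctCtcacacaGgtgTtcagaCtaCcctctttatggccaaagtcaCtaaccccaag

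This likeness bears on how reads could be assigned. Of the 50-base windows of each member's transcript, 4.07% (Serpina3c) to 19.1% (Serpina3m) occurred exactly in another Serpina gene, and of the 100-base windows 0% (Serpina3c) to 6.09% (Serpina3m). The read length is not given in the sources used here. Serpina3m shared most with Serpina3k, and the authors' estimated counts of both were off a whole number by over 0.01 in 5 of the 6 libraries. Those of Serpina3f and Serpina3i were so in 6, of Serpina3g in 4, of Serpina3n in 2 and of Serpina3c in 1. How far division of reads among copies sets the values below was not tested.

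**Figure D1:**
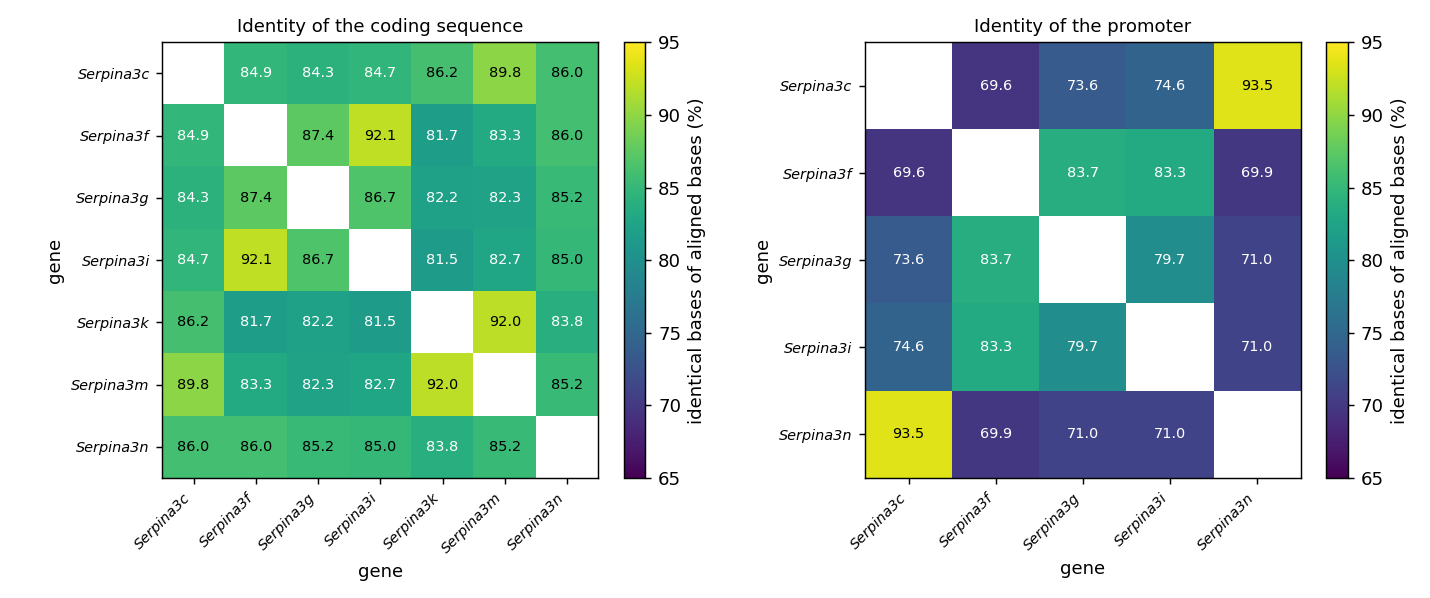
Percent identity between members, as identical bases of all aligned bases, for the coding sequences of the 7 genes (left) and the promoters of the 5 with a RefSeq promoter (right). Gap columns are not counted, and promoter pairs with Serpina3g have 138 to 196 of them. The promoters of Serpina3c and Serpina3n stand out at 93.5%, while their coding sequences are 86% identical.

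Serpina3k was by far the most abundant member per unit of transcript length. Its TPM were 7609, 11072 and 10778 in control and 10821, 11749 and 12104 in knockout libraries. Control replicate 1 was the lowest, and the groups overlapped. The mean was 9820 ± 1920 TPM (SD, n = 3) in control and 11558 ± 662 TPM (SD, n = 3) in knockout livers, and the log2 fold change of scaled counts was 0.24 ± 0.16 (SE). It was the only member with a positive value.

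Serpina3m had 367.5, 612 and 731 TPM in control and 337, 386 and 465 TPM in knockout libraries, with overlapping groups and a log2 fold change of -0.45 ± 0.21 (SE). Serpina3n, the acute phase member that inhibits granzyme B, had 299, 434 and 538 TPM against 276, 364 and 319 TPM, a log2 fold change of -0.38 ± 0.18 (SE). For both genes control replicate 1 lay among the knockouts and the other 2 controls lay above all of them. In both groups Serpina3m and Serpina3n took the ranks after Serpina3k, and they overlapped each other.

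Serpina3c had 20.3, 18.7 and 13.9 TPM in control and 2.71, 3.42 and 3.19 TPM in knockout libraries. The groups were far apart, with 17.6% of the control mean left. Its estimated counts were 418, 400 and 283 against 55, 71 and 67, and the log2 fold change was -2.55 ± 0.25 (SE), or 5.84-fold lower in knockout livers. In the controls Serpina3c ranked above Serpina3g without overlap. In the knockouts it ranked below Serpina3g and overlapped Serpina3f.

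Serpina3i had the lowest mean level of the members, overlapping Serpina3f and Serpina3g in the controls but no member in the knockouts. It had 2.51, 4.10 and 5.68 TPM in control and 0.65, 0.46 and 0.28 TPM in knockout libraries, from 52.2, 67.9 and 104 estimated counts against 11.1, 8.47 and 8.24. All knockouts were below all controls, and 11.3% of the control mean was left. The log2 fold change was -3.03 ± 0.30 (SE), or 8.15-fold lower.

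Serpina3f had 4.01, 9.07 and 7.34 TPM in control and 3.60, 3.37 and 3.12 TPM in knockout libraries. The groups did not overlap, but control replicate 1 lay close to the knockouts. Its log2 fold change was -0.88 ± 0.21 (SE). Serpina3g, the cathepsin inhibitor of immune cells, had 5.04, 12.3 and 11.3 TPM against 5.56, 6.02 and 5.65 TPM, a log2 fold change of -0.72 ± 0.22 (SE). Its groups overlapped in TPM, where control replicate 1 was the lowest of all 6 libraries, but not in scaled CPM, where that control had 7.99 against 6.99 to 7.66 in the knockouts. Without control replicate 1 the log2 fold changes were -1.07 for Serpina3f and -0.93 for Serpina3g. Without control replicate 2 they were -0.66 and -0.53.

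**Figure D2:**
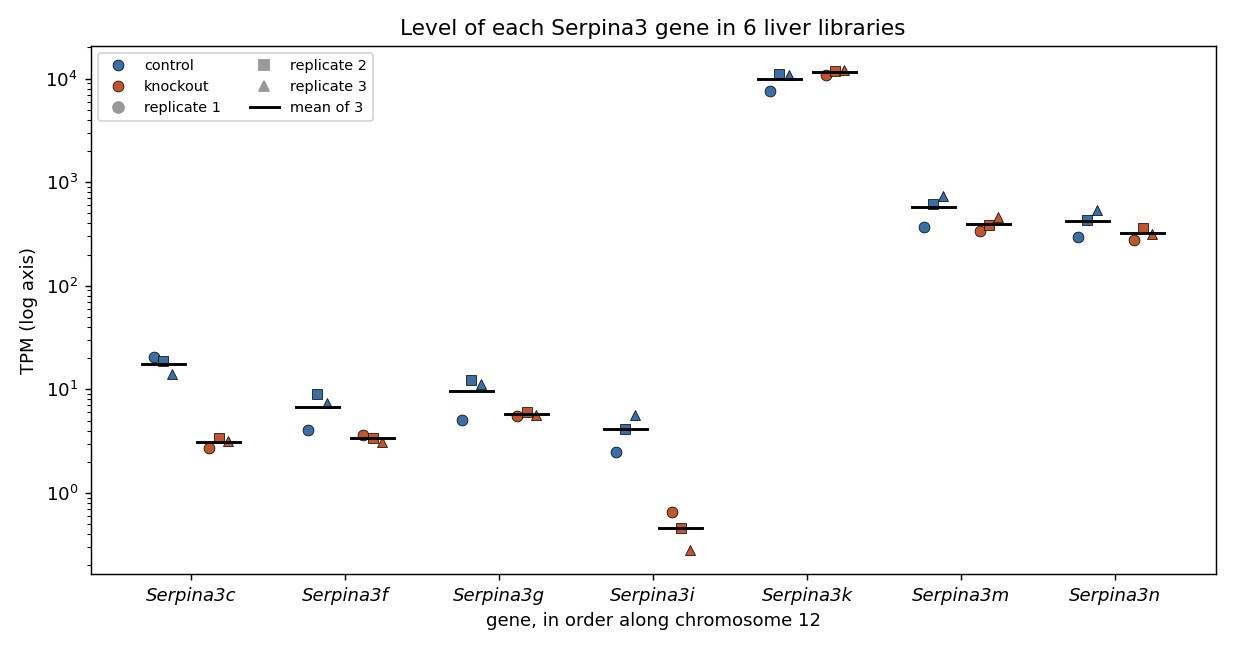
TPM of each member (log axis) in the 3 control and 3 knockout libraries, with symbols for replicates and lines for group means, in order along chromosome 12. Serpina3k lies between 7609 and 12104 TPM, Serpina3m and Serpina3n between 276 and 731 TPM, and the other members at 20.3 TPM or less; only Serpina3c, Serpina3f and Serpina3i show groups that do not overlap.

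Read out of the fit over all tested genes, 2 of the 7 members, Serpina3c and Serpina3i, had an adjusted p under 0.05 by the quasi-likelihood test of edgeR, both lower in knockout livers. Over all 12173 tested genes 1.49% passed, and 0.715% passed as lower. Nothing is read from this count, since the members were chosen with the contrast known. All 7 had enough counts to be tested, 6 of them had a negative log2 fold change (52.2% of all tested genes did), and their median was -0.72 against -0.0179 over all tested genes. In scaled CPM the knockouts lay below all controls in 4 members, against 11.9% of tested genes. DESeq2 called 3 members, all lower, where it called 5.26% of all genes to which it gave an adjusted p. The call of Serpina3c and Serpina3i held under each of 17 alternatives, of which an adjusted p of 0.1 could not lose a call. Serpina3f passed in 3 of them (DESeq2, an adjusted p of 0.1, and without control replicate 1) and Serpina3g in 1, without control replicate 1. The authors' deposited table lists 3 members with a q value under 0.05, Serpina3c, Serpina3f and Serpina3i.

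**Figure D3:**
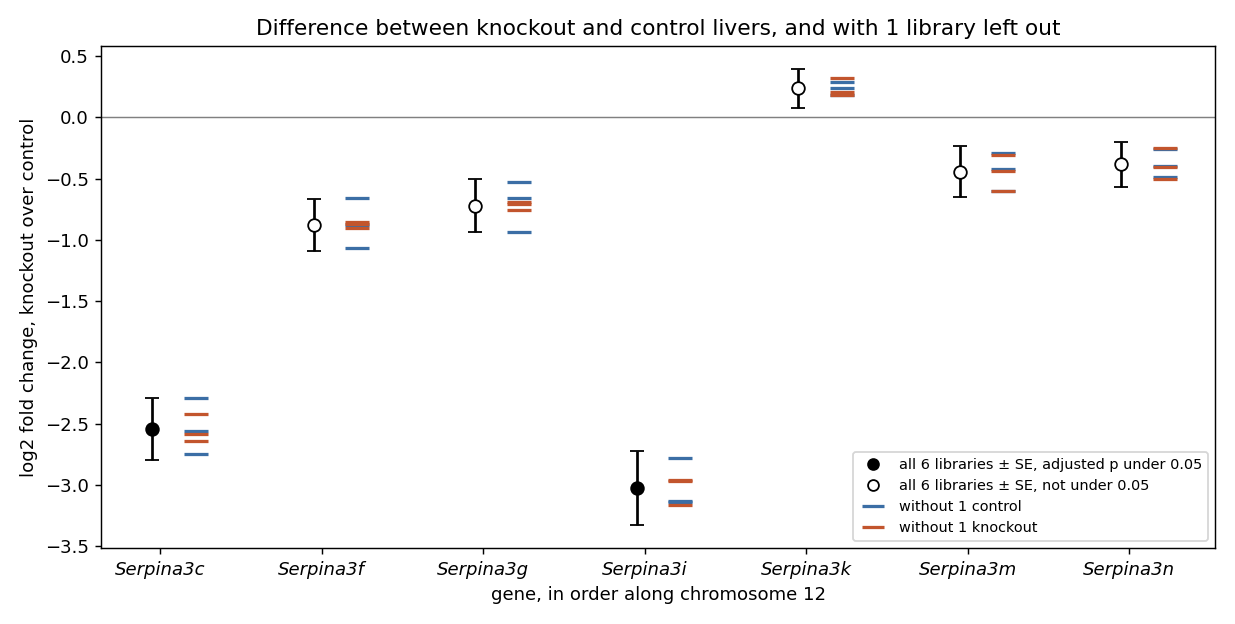
Log2 fold change of each member, knockout over control, from edgeR with all 6 libraries (circles with SE, filled where the adjusted p is under 0.05) and with 1 library left out in turn (dashes). Serpina3c and Serpina3i lie at -2.55 and -3.03, and leaving out 1 library moved no member across 0.

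The family sum followed Serpina3k. It was 8307, 12163 and 12085 TPM in control and 11446, 12512 and 12900 TPM in knockout libraries, or 0.831% to 1.29% of all TPM in a library. Means were 10851 ± 2200 and 12286 ± 753 TPM (SD, n = 3), a log2 ratio of 0.179 that dropped to 0.0192 without control replicate 1, and the groups overlapped. Without Serpina3k the other 6 members summed to 698, 1091 and 1307 TPM in control and 625, 763 and 797 TPM in knockout libraries. That log2 ratio was -0.503, with control replicate 1 inside the range of the knockouts.

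Shares within a library do not depend on how libraries are scaled to each other. Serpina3k made up 91.6%, 91% and 89.2% of the family's TPM in control and 94.5%, 93.9% and 93.8% in knockout libraries, so that every knockout was above every control. The shares of all 6 other members were lower in every knockout than in every control. Serpina3m went from a mean share of 5.17% ± 0.819 to 3.21% ± 0.35 (SD, n = 3) and Serpina3n from 3.87% ± 0.502 to 2.6% ± 0.271 (SD, n = 3). As these shares come from the same contrast and add up to the whole, they are a description.

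Against Serpina3n in the same library, Serpina3c and Serpina3i stood lower in every knockout, while Serpina3m did not separate. Serpina3c was 6.8%, 4.3% and 2.59% of the Serpina3n TPM in control and 0.983%, 0.941% and 1% in knockout libraries. The promoters shown above as 93.5% identical thus belong to a gene at 17.6% of its control mean in knockout livers and to one at 75.4%. Serpina3i was 0.841% to 1.06% of Serpina3n in control and 0.0877% to 0.236% in knockout libraries. Serpina3m was 123% to 141% of Serpina3n in the controls and 106% to 146% in the knockouts. Serpina3f against Serpina3g was 64.9% to 79.6% in the controls and 55.2% to 64.7% in the knockouts.

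**Figure D4:**
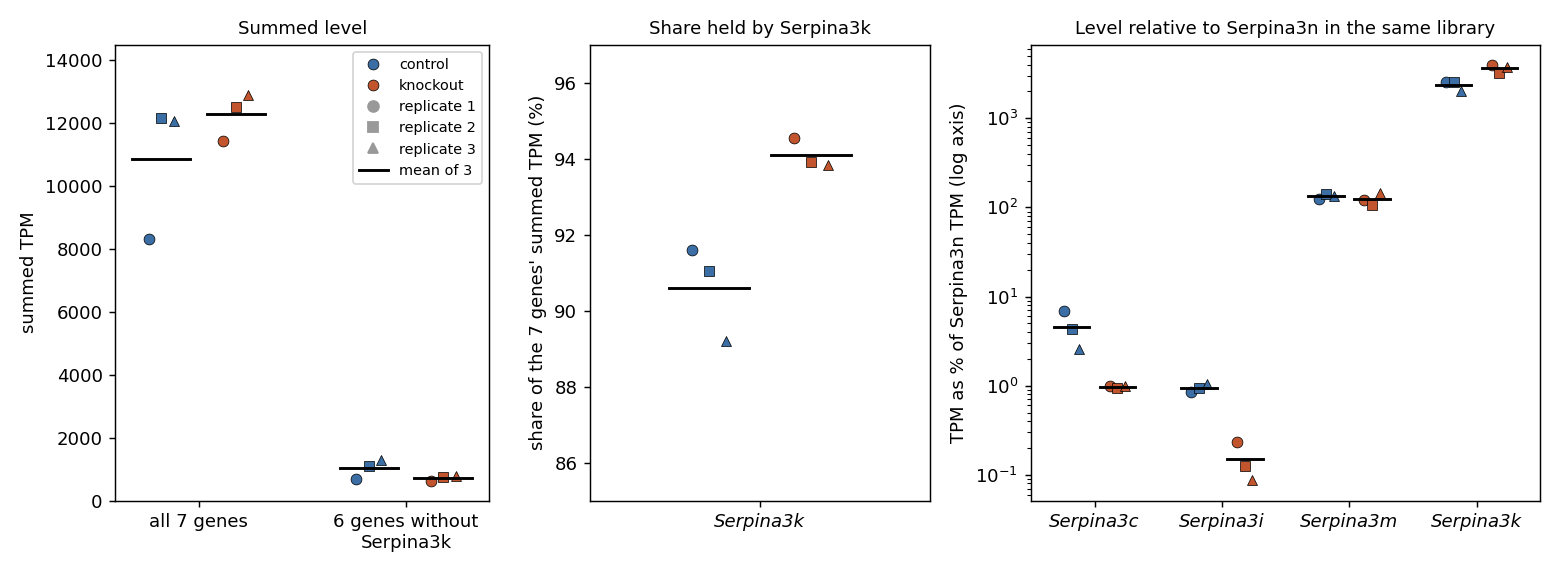
Left, summed TPM of all 7 members and of the 6 without Serpina3k; middle, Serpina3k's percent of the family's TPM on an axis that starts at 85; right, TPM of 4 members as percent of the Serpina3n TPM in the same library (log axis). Points are libraries and lines are group means; the Serpina3k share lies at 89.2% to 91.6% in the controls and 93.8% to 94.5% in the knockouts.

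Members also differed in which other genes varied like them over the 6 libraries. Likeness was the root mean square difference between log2 CPM profiles, each centred on its mean, over 9162 genes, so it mixes the genotype difference with the spread within groups. Serpina3f and Serpina3g were each other's nearest member, at 0.103, and their nearest genes were Pirb (0.0534) and Ctss (0.0952) for Serpina3f and Dock2 (0.086) and Lcp2 (0.102) for Serpina3g. For Serpina3c they were Pik3c3 (0.388) and Lcn2 (0.411), and for Serpina3i Arrdc3 (0.457) and Crybg2 (0.493). Serpina3c and Serpina3i were 0.536 apart. For Serpina3k the nearest were Srd5a3 (0.0379) and Mat2b (0.0419), and for Serpina3m Sh2b2 (0.111) and Stk11ip (0.112). The family sum was nearest to Mat2b (0.039), Srd5a3 (0.0483), Upb1 (0.0514) and Cnih1 (0.0526). The median over all compared genes ran from 0.243 for the family sum to 1.42 for Serpina3i.

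Few markers of immune cells were called, but summed levels of some lists were lower in every knockout library. The 11 T and NK cell markers in the table summed to 23.1, 53.6 and 29.3 TPM in control and 14.1, 19.2 and 11.9 TPM in knockout libraries, without overlap, and none was at 0 in any library. Some rested on few counts. Knockout means were 0.187 CPM for Cd3d, 0.37 for Cd8a and 0.469 for Nkg7, where 3 counts come to 0.155 to 0.201 CPM. Of 9 tested, 0 passed in edgeR (6 at an unadjusted p under 0.05, where 18.5% of all tested genes pass; 2 in DESeq2), with a median log2 fold change of -1.15. The 12 macrophage markers summed to 555 to 1013 TPM in control and 564 to 702 TPM in knockout libraries, which overlapped, and of 12 tested 0 passed in edgeR (5 at an unadjusted p under 0.05, 1 in DESeq2). All 12 had a negative log2 fold change, where 52.2% of all tested genes did, and their median was -0.348. As for Serpina3f and Serpina3g, control replicate 2 was the highest library in both lists. It was also the highest for the summed B cell, neutrophil, endothelial and stellate cell markers and interferon gamma response genes. This order is thus not particular to T and NK cell or macrophage markers. B cell markers (5 in the table, 1 of 4 tested called, lower; 9.83 to 21.6 against 4.43 to 7.35 TPM) and neutrophil markers (7 in the table, 0 of 2 tested called in edgeR or DESeq2, 1 at an unadjusted p under 0.05; 8.83 to 16.8 against 5.34 to 8.21 TPM; Mpo, Cxcr2 and Retnlg at 0 in at least 1 library) were lower without overlap. Of 14 endothelial and stellate cell markers 1 was called, lower, and their sums overlapped (305 to 364 against 273 to 324 TPM). In bulk tissue fewer cells of a type and less RNA per cell cannot be told apart, and the part of these cells in the Serpina3f and Serpina3g values was not tested. Serpina3c followed another order, with control replicate 1 the highest library and control replicate 3 the lowest control.

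Genes of the interferon gamma response, which includes Serpina3g in immune cells, had mostly negative values. Of 20 tested, 19 had a negative log2 fold change, and the median was -0.83 (52.2% of all tested genes had a negative value). In edgeR 0 passed, 17 had an unadjusted p under 0.05 (18.5% of all tested genes), and DESeq2 called 7, all lower (2.18% of all genes it adjusted were lower). Without control replicate 1, 11 were called, without control replicate 3, 3 were called, and without each of the other 4 libraries 0 were called. The smallest p were those of Gbp7 (2.01, 3.52 and 3.53 TPM in control and 2, 1.57 and 1.52 TPM in knockout libraries; log2 fold change of -0.83 ± 0.17, SE) and the transcription factor gene Irf1 (-0.72 ± 0.16, SE), with adjusted p of 0.054 and 0.0657 in edgeR. The summed list had overlapping groups.

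Of 24 acute phase genes other than the members, 2 were called by edgeR, both lower, where 0.715% of all tested genes were. DESeq2 called 4, all lower, where 2.18% of all genes it adjusted were. In either direction 8 had an unadjusted p under 0.05, against 18.5% of all tested genes. Among the 8, Orm1 and Crp were higher, with log2 fold changes of 0.54 ± 0.18 and 0.30 ± 0.13 (SE). In scaled CPM every knockout lay above every control for both, and neither was called by edgeR. Orm2 and Hp, also among the 8, were lower, with log2 fold changes of -0.87 ± 0.28 and -0.60 ± 0.20 (SE). For these every knockout lay below every control, and neither was called by edgeR. Over all tested genes the groups did not overlap in 25.2%, in either direction. Lcn2, an iron-siderophore binding protein, went from 34.7 ± 8.17 to 8.15 ± 2.77 TPM (SD, n = 3), a log2 fold change of -2.09 ± 0.27 (SE); the edgeR adjusted p was 0.0101, and 3 of 3 knockouts were lower. Saa3, a serum amyloid A gene, went from 25.1 ± 8.95 to 5.5 ± 1.88 TPM (SD, n = 3; edgeR adjusted p of 0.0223), also lower in 3 of 3 knockouts. The call of Saa3 was lost without control replicate 2 (0.0514) and without knockout replicates 1, 2 or 3 (0.0752, 0.0881 and 0.0828). The list's median was -0.0374 against -0.0179 over all tested genes, and its summed TPM overlapped between the groups (26004 to 28401 in control and 25721 to 29939 in knockout libraries).

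Genes of upstream signals were read against the 1.49% of all tested genes that edgeR called. Of 16 genes of interleukin 6 and STAT3 signalling 0 passed in edgeR (2 at an unadjusted p under 0.05, 2 in DESeq2), with a median of 0.24. The smallest p were those of the transcription factor gene Cebpb (log2 fold change of 0.64 ± 0.17, SE; adjusted p of 0.0957 in edgeR) and the receptor gene Lifr (0.66 ± 0.21, SE; adjusted p of 0.146). Of 12 genes of growth hormone and STAT5 signalling 0 passed (1 at an unadjusted p under 0.05, 1 in DESeq2). Their feedback inhibitor gene Socs2 had 52.9, 30.0 and 68.5 TPM in control and 22.8, 26.2 and 24.4 TPM in knockout libraries. Its adjusted p in edgeR was 0.117 over all 6 libraries and 0.0337 without control replicate 2. Without any other single library it was 0.116 to 0.332. Cux2, a transcription factor gene with female-biased liver expression, had 0.09, 0.05 and 3.46 TPM against 0.63, 0.06 and 0.14 TPM. Its log2 fold change of -2.08 ± 1.18 (SE) rested on control replicate 3, without which it was 1.3. Of 13 glucocorticoid response genes 8 had a positive and 5 a negative value, with a median of 0.374. The negative ones, Fkbp5, Tsc22d3, Per1, Hsd11b1 and Klf9, ran from -0.32 to -0.01, with overlapping groups. Of the 13, 5 had an unadjusted p under 0.05, against 18.5% of all tested genes. DESeq2 called 3, all higher, where it called 5.26% of all genes it adjusted, in either direction. In edgeR 2 rose, the glycogen-targeting subunit gene Ppp1r3g (3.73 ± 0.41, log2 and SE; adjusted p of 0.00612 in edgeR) and the tyrosine aminotransferase gene Tat (1.48 ± 0.25; adjusted p of 0.0241), each in 3 of 3 knockouts. Tat lost its call without knockout replicate 1, 2 or 3 (0.0794, 0.0739 and 0.0971).

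Among 11 tested serpins of the other Serpina genes, 2 rose and 1 fell. Serpina1a, an alpha-1-antitrypsin gene, went from 3067 ± 345 to 5943 ± 399 TPM and Serpina1e from 4026 ± 1685 to 12803 ± 2566 TPM (SD, n = 3), while Serpina11 went from 180 ± 23.0 to 86.7 ± 10.8 TPM (SD, n = 3). Their adjusted p in edgeR were 0.0198, 0.0228 and 0.0101, with all 3 knockouts outside the range of the controls. All 3 lost their call without knockout replicate 2 (0.0993, 0.0619 and 0.0711). Serpina1a and Serpina1e also lost it without knockout replicate 1 (0.0763 for both) or 3 (0.106 and 0.0854), and Serpina1a without control replicate 2 (0.0711). Serpina1 genes are related copies as well. Of these, Serpina1b, Serpina1c and Serpina1d had negative log2 fold changes (-0.48, -0.05 and -0.63), and none was called by edgeR (adjusted p of 0.156, 0.885 and 0.0811). For Serpina1b and Serpina1d every knockout lay below every control in scaled CPM, as in 11.9% of all tested genes. The groups of Serpina1c overlapped. The estimated counts of Serpina1e were not whole in any library, such as 46061.81 in control replicate 1 and 254129.77 in knockout replicate 3. How far division of reads among the copies sets these values was not tested. Of 8 tested genes listed as other secreted serpins 1 rose, Serpine2, protease nexin 1, from 2.18 ± 1.08 to 9.35 ± 2.92 TPM (SD, n = 3). Its adjusted p was 0.0225 in edgeR, a call lost without knockout replicate 2 (0.0886) or 3 (0.0822). The 8 include Serpinh1, a collagen chaperone of the endoplasmic reticulum and not a secreted serpin. Its log2 fold change was -0.75 ± 0.22 (SE), and edgeR did not call it.

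Of 12 tested proteases 0 passed in edgeR, and the median log2 fold change was 0.0597. They were listed as serine and cysteine proteases, the kinds that these serpins inhibit, but include Ctsd, an aspartic protease (0.21 ± 0.13, SE). An unadjusted p under 0.05 was found for 3 of the 12, against 18.5% of all tested genes. DESeq2 called 3, against 5.26% of all genes it adjusted. The smallest p were those of the granzyme genes. Gzmb had 1.05, 3.20 and 2.86 TPM in control and 0.73, 0.77 and 0.33 TPM in knockout libraries, with a log2 fold change of -1.94 ± 0.42 (SE; edgeR adjusted p of 0.0597). Gzma had 2.21, 3.62 and 1.68 TPM against 0.68, 0.78 and 0.55 TPM (log2 fold change of -1.92 ± 0.43, SE; adjusted p of 0.0624 in edgeR). Without control replicate 1 the edgeR adjusted p of Gzmb was 0.0173, and without control replicate 3 that of Gzma was 0.0225. Without any other single library it was 0.0627 to 0.192 for Gzmb and 0.0762 to 0.209 for Gzma. Knockout libraries held only 6 to 14 estimated counts of Gzmb and 5 to 7 of Gzma. Both are also products of T and NK cells.

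**Figure D5:**
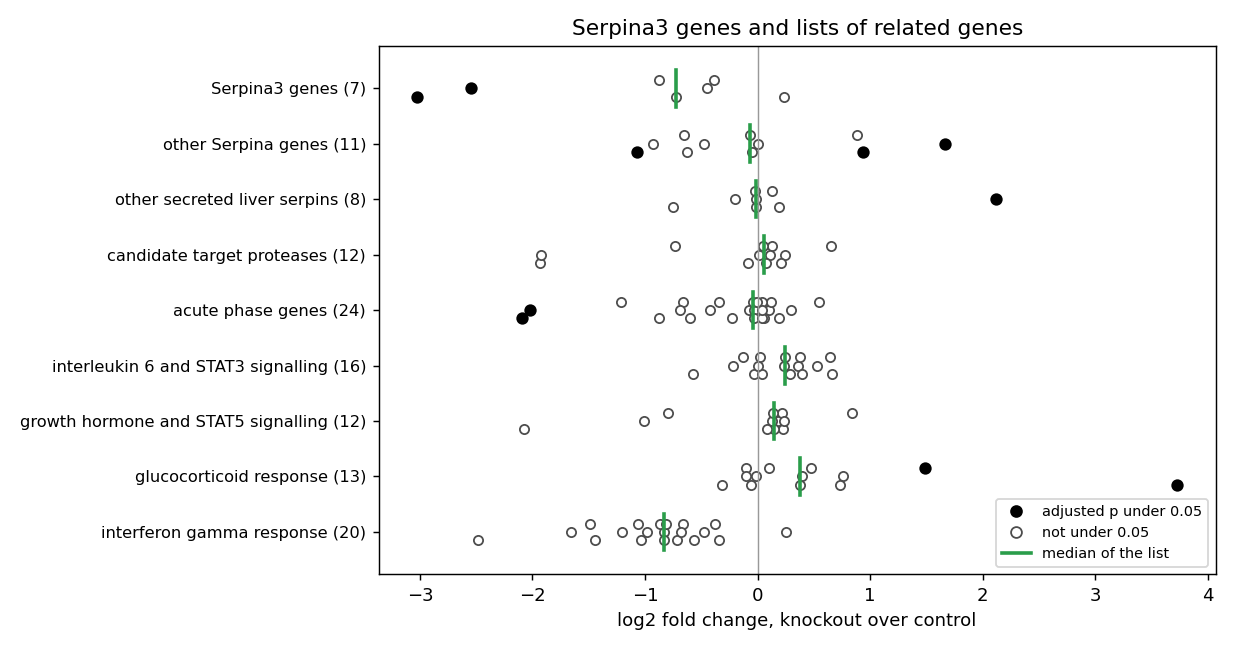
Log2 fold change, knockout over control, of the 7 Serpina3 genes and of the tested genes in 8 related lists (numbers tested in parentheses), with filled circles for an adjusted p under 0.05 in edgeR and green lines at list medians. The Serpina3 median lies at -0.72 and that of the interferon gamma list at -0.83, while acute phase genes centre on -0.0374.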

How the data were processed

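Members and lists were chosen with earlier results of these data known. The submitters' processing notes name RSEM 1.3.1, HISAT2, Bowtie2 and GRCm38, with step order, trimming and strandedness not given in the sources used here. Per the file headers, the authors deposited estimated counts, FPKM and TPM per gene and library, their group means, and a DESeq2 comparison with a log2 fold change and a p-value and q-value per gene. Library columns are named wild type and knockout and were matched to the labels by group and number.

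Estimated counts (4.5% to 4.91% of values per library not whole by over 0.01) were rounded. Every pair of libraries differed beyond sampling noise (chi-square over its degrees of freedom 18.9 or more). edgeR 4.0.16 in R 4.3.3 fitted all genes kept by filterByExpr (12173) with TMM scaling, genotype as the only term, a quasi-likelihood F test and Benjamini-Hochberg adjustment at 0.05; standard errors come from the F statistic. The fit was tested on simulated data. CPM are scaled by TMM factors; profiles use log2 CPM with a prior count of 2. Named from each list were the called genes, at most 4, or else the 2 with the smallest p; likeness used genes of mean log2 CPM of at least 2, without predicted models, and the genes nearest to Serpina3n are not reported here. Identity comes from global alignments of the GENCODE transcript with the longest coding sequence per gene. Alternatives were other scaling, filters, a replicate block, DESeq2 1.42.0, limma 3.58.1 (voom, and with a trend on log2(TPM + 1), log2(TPM + 0.1) and log2(FPKM + 1)), an adjusted p of 0.1 and each library left out.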

Additional observations from a re-analysis of the deposited data

How the results depend on the processing

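The number of genes called over the whole table was 181, and it was 330 with no low-count filter, 634 with DESeq2, 79 and 83 with limma on log2(TPM + 1) and log2(TPM + 0.1), 110 on log2(FPKM + 1), 513 at an adjusted p of 0.1, and from 43 to 668 with 1 library left out; the cause was not tested. Of the 7 members 2 were called, and 2 to 4 with 1 library left out, the 4 being without control replicate 1. The family sum's log2 ratio of 0.179 ran from 0.0192 to 0.269 with 1 library left out and was -0.503 without Serpina3k, by construction without the most abundant member. Sums in CPM and FPKM gave 0.18 and 0.121. The log2 fold change of Serpina3i was smallest on log2(FPKM + 1), at -1.65, and next on log2(TPM + 1), at -1.76, a scale whose pseudocount exceeds its knockout level. No member changed sign under the 17 alternatives, of which an adjusted p of 0.1 keeps the same fold changes. Cux2 did change sign, from -3.27 to 1.3 with 1 library left out, the positive value being without control replicate 3.

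With the replicate number as a block, 87 genes and the same number of members, 2, were called. The numbers do not pair the samples: deviations from the group means correlated at -0.16, -0.0786 and -0.076 between same-numbered libraries. Under the block none of the 3 called Serpina genes besides the members passed, nor did Tat (adjusted p of 0.0748). DESeq2 called 5 of the other Serpina genes, 2 genes listed as other secreted serpins, 4 acute phase and 3 protease genes. It also called 2 interleukin 6, 1 growth hormone and 7 interferon genes, beside 5.26% of all genes it adjusted. With no low-count filter 6 interferon genes and 1 protease gene passed, and at an adjusted p of 0.1 7 and 3. Serpina3i had 8.24 to 11.1 estimated counts per knockout library, the fewest of the members.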
